A study of Mus musculus with 6 samples.

Results

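Matricellular and adhesive glycoproteins of the extracellular matrix were measured in primary fibroblasts of mouse embryos that differed at exon 2 of Cas. The members were chosen by name as secreted proteins that signal through integrins: Fn1, Tnc, Thbs1, Thbs2, Postn, Sparc, Spp1, Tgfbi, Vcan and Mgp. Of these 10 genes, 9 had a probe set annotated to them alone, and Spp1 was not analysed here. They had 26 of the 45101 probe sets on the array, and 20 of the 26 were bright enough to be tested. The 9 genes are 9 of the 18193 genes that could be named. One probe set shared between Thbs1 and Pald1 was left out.

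Cas (p130Cas, gene Bcar1) is a docking protein of integrin adhesions, and the mice carried a deletion of its exon 2. Total RNA of cultures from 6 embryos was hybridized to Affymetrix mouse arrays, with 2 embryos each of Cas exon 2+/+ (wild type), Cas exon 2+/∆ (heterozygote) and Cas exon 2∆/∆ (homozygote). The strain was B6 for 5 embryos and is not labelled for the first wild-type embryo (wild type 1). All embryos were 12.5 days post coitum and came from crosses between heterozygotes. Cells came from what remained of each embryo after the head and inner organs were removed, and were grown in medium with fetal calf serum, so a culture may hold several cell types, and fewer cells of a type cannot be told apart from less RNA per cell. Litter and passage of the cells are not stated in the labels.

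Matricellular proteins are secreted into the matrix but mainly modulate how cells attach and respond to it. Fibronectin supports adhesion directly. Tenascin-C, thrombospondins and Sparc can weaken adhesion, while periostin and Tgfbi belong to the fasciclin family of adhesive proteins. Integrins that bind these ligands recruit focal adhesion kinase and Src, which phosphorylate Cas.

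Levels are given as log2(intensity + 1.78) after quantile normalization, which gives all arrays the same distribution of values. Differences come from a limma fit to all 6 arrays and 22519 probe sets, with p-values adjusted over all of them and called under 0.05. With 2 embryos per genotype precision is low, and a p-value reflects how much single cultures vary. The brightest probe set stands for each gene, and the other tested probe sets of a member are given beside it. For genes outside the members they are mostly not given, and some of them differ in sign from the brightest.

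Median deposited intensities lay between 21.9 and 27.3 on the 6 arrays. The Bcar1 level was 9.37 and 8.42 on the wild-type arrays, 8.19 and 8.32 on those of heterozygotes and 8.08 and 8.43 on those of homozygotes, and the labels do not place its probes against the deleted exon. The 10 fibroblast markers were all above the intensity limit, the lowest at 6.80 in wild type 1. The median of their deviations from the gene means was -0.67 in wild type 1, and between -0.10 and 0.35 on the other 5 arrays. The 7 smooth muscle markers were at 0.83 in wild type 1 and between -0.81 and 0.57 elsewhere. Of 19 macrophage markers 17 were tested, and all 17 had a higher mean in homozygotes than in the other genotypes, where 47.4% of all genes did. Both homozygote arrays lay above all other arrays in 6 of the 17, where 3.16% of all genes did so. The median of the macrophage markers was -1.19 in wild type 1, 1.23 in homozygote 1 and between -0.50 and 0.29 on the other arrays. Of 8 neural and Schwann markers 4 were tested, with 0 higher and 4 lower in homozygotes than in the other genotypes and a median difference of -1.25. Both homozygote arrays lay below all other arrays in 2 of the 4, where 3.61% of all genes did so. Xist was high (8.82 to 10.29) in wild type 1 and both heterozygotes and low (3.70 to 5.31) in wild type 2 and both homozygotes. The Y-linked Eif2s3y deviated from its mean by -1.77 in wild type 1, against -4.14 and -3.68 in the heterozygotes. Uty was at -0.97 against -1.91 and -2.55, and Kdm5d at -2.78 against -2.82 and -3.15. All were above their means in wild type 2 and the homozygotes. Embryo sex by expression thus cannot be told apart from genotype between heterozygotes and homozygotes. Within a genotype it differed clearly only between the wild-type arrays, so a covariate for sex is set mainly by their gap and is no test of sex. The part of these features in the results below was not tested, and values without single arrays are given where they differ.

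No member differed between genotypes beyond the threshold. In the stated comparison, homozygotes against wild type and heterozygotes together, limma called 0 of the 20 tested member probe sets and 0 of all 22519 (0% called), and 0 member probe sets had an unadjusted p under 0.05 against 560 of all probe sets (2.49%). The median log2 difference of the 9 genes was 0.02, beside -0.01 over 11373 genes tested, with 5 members higher and 4 lower. Both homozygote arrays lay above the other 4 in 0 of 9 members, where 3.16% of all genes did so, and below them in 0, where 3.61% did. The widest difference was that of Thbs2, at 0.81 (SE 0.42, limma adjusted p = 1). Postn followed at 0.53 (SE 0.26, limma adjusted p = 1).

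**Figure D1:**
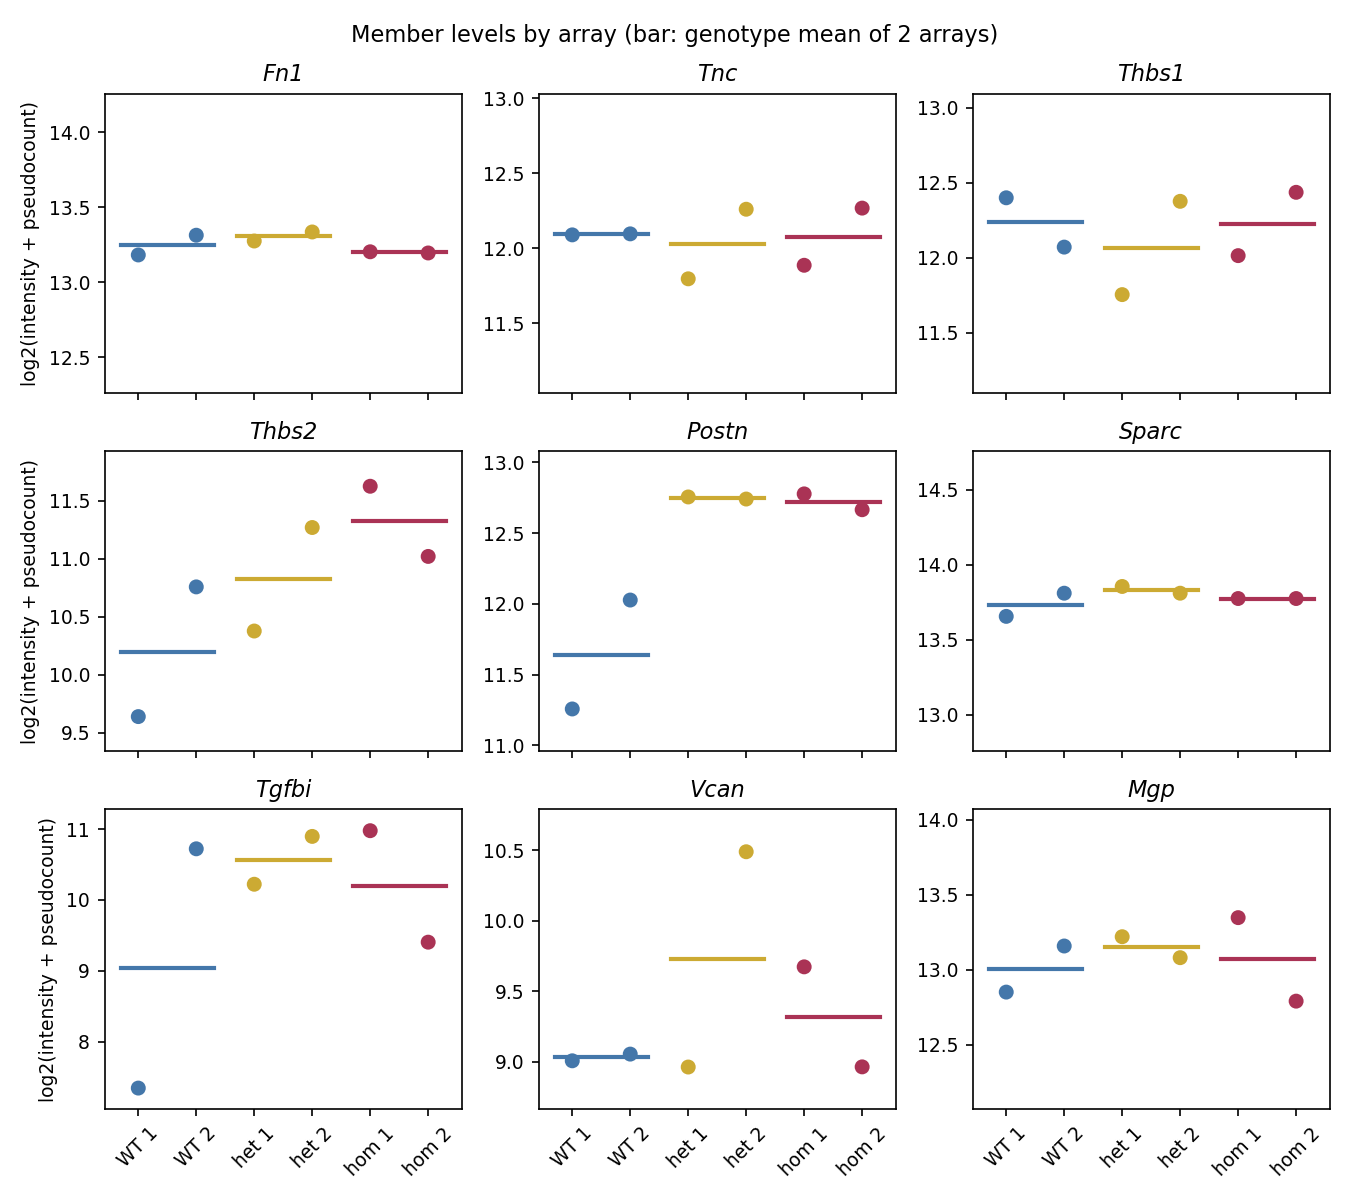
Level of each of the 9 members on each array, as log2(intensity + pseudocount) on the vertical axis, with 2 arrays per genotype (WT, wild type; het, heterozygote; hom, homozygote) and the genotype mean as a bar. Each panel has its own vertical range. Fn1 and Sparc span 0.15 and 0.20 log2 units, Tgfbi spans 3.63, and the 2 wild-type arrays of Postn lie below the other 4.

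Pairwise, Postn was the member whose brightest probe set had both wild-type arrays below all others. The second probe sets of Fn1 and Sparc had this order too, as given below. Periostin (Postn) is a fasciclin protein of collagen-rich connective tissue and of healing wounds. Its level was 11.26 and 12.03 in the wild type, 12.76 and 12.74 in the heterozygotes and 12.78 and 12.67 in the homozygotes. Both wild-type arrays were thus lower than all 4 arrays with the deletion, and the heterozygote and homozygote arrays overlapped. Homozygotes exceeded wild type by 1.08 (SE 0.30, 95% interval 0.35 to 1.81), a 2.11-fold difference, and heterozygotes exceeded wild type by 1.11 (SE 0.30), a 2.15-fold difference. These comparisons share the wild-type arrays. Neither difference passed (limma adjusted p = 0.973 and 0.838, unadjusted p = 0.0105 and 0.00938), in comparisons where 3.8% and 5.26% of all probe sets had an unadjusted p under 0.05. Homozygotes and heterozygotes differed by -0.03 (95% interval -0.75 to 0.70), and by 0.05 with median centring. Without wild type 1, the array with the lowest level, homozygotes exceeded wild type by 0.71 and heterozygotes by 0.73.

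Thbs2 was lowest in wild type 1 as well. Thrombospondin 2 is an anti-angiogenic glycoprotein of connective tissue that takes part in collagen fibre assembly. It lay at 9.64 and 10.76 in the wild type, 10.38 and 11.27 in the heterozygotes and 11.62 and 11.02 in the homozygotes. The homozygote arrays were above the wild-type arrays, while the heterozygote arrays overlapped both. Homozygotes exceeded wild type by 1.12 (SE 0.48, 95% interval -0.05 to 2.29, limma adjusted p = 0.973). The other Thbs2 probe sets gave 0.98 and 1.10. Homozygotes exceeded heterozygotes by 0.50 (SE 0.48) and heterozygotes exceeded wild type by 0.62 (SE 0.48), and neither passed (limma adjusted p = 1 and 0.851). Without wild type 1, the difference between homozygotes and wild type was 0.57, and that between heterozygotes and wild type 0.07. Homozygotes differed from heterozygotes by 0.05 without heterozygote 1.

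Tgfbi varied more between embryos than between genotypes. The protein, induced by TGF-beta, shares its fasciclin domains with periostin. Its level was 7.35 in wild type 1 against 10.72 in wild type 2, 10.22 and 10.90 in heterozygotes, and 10.98 in homozygote 1 against 9.40 in homozygote 2. Wild type 1 was the lowest array and homozygote 2 the next lowest, so all genotypes overlapped. The wild-type cultures differed 10.4-fold from each other, a gap wider than that of 99.8% of genes, and the homozygote cultures 2.97-fold. Over the 6 arrays Tgfbi spanned 12.4-fold, and 99.2% of genes had a smaller range. The 4 Tgfbi probe sets had the same lowest and next lowest array, and their wild-type cultures differed between 5.57-fold and 11.0-fold. Homozygotes were at 1.16 relative to wild type (SE 1.09, 95% interval -1.47 to 3.79, limma adjusted p = 0.973) and at -0.37 relative to heterozygotes (SE 1.09, limma adjusted p = 1). The first of these was -0.52 without wild type 1. In the stated comparison the value of 0.39 was -0.44 without wild type 1 and -0.40 when homozygote 1 was left out, so it has no settled direction.

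Tgfbi, which macrophages also express, shared the array order of the macrophage markers in part, and the part of macrophages in its level was not tested. The deposited intensities of 19 markers summed to 3777 and 8076 in the wild type, 6354 and 6590 in the heterozygotes and 18202 and 8737 in the homozygotes. Wild type 1 was the lowest array for both. Homozygote 1 was the highest array for the markers and, after normalization, for Tgfbi (10.98). On the deposited intensities Tgfbi was highest in heterozygote 2 (2055 against 1827 in homozygote 1). Homozygote 2 was the next lowest array for Tgfbi. For the macrophage markers the next highest array was homozygote 2 by the sum and wild type 2 by the median deviation (0.29 against 0.20), and no marker was at 0.

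Proximal promoters are shown for 3 members with wide ranges over the cultures (Postn, Thbs2 and Tgfbi, all lowest in wild type 1) and for Tnc, whose lowest array after normalization was heterozygote 1. Sequences are from RefSeq on GRCm38.p6, which had 8 windows for 6 of the 9 members. Each is the 250 bases before the annotated start, 5′ to 3′ on the strand of the gene, with capitals for matches to the TATA box (TATAAA), the CCAAT box (CCAAT), the AP-1 site (TGANTCA) and the TEAD site (GGAATG), searched on both strands. The windows are chr3:54360857-54361106 (plus strand) for Postn, the downstream of its 2 annotated starts, chr17:14694263-14694512 (minus strand) for Thbs2, chr13:56609336-56609585 (plus strand) for Tgfbi and chr4:64046937-64047186 (minus strand) for Tnc, the downstream of its 2 annotated starts.
Postn: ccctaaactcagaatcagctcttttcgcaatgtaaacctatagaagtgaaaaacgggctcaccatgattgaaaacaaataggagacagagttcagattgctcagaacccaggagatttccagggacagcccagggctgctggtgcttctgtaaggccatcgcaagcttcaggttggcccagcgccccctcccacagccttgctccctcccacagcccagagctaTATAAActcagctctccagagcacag
Thbs2: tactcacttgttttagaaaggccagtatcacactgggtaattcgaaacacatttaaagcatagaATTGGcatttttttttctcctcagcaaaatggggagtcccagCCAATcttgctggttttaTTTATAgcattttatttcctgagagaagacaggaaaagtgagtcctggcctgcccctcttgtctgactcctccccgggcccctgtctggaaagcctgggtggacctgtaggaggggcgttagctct
Tgfbi: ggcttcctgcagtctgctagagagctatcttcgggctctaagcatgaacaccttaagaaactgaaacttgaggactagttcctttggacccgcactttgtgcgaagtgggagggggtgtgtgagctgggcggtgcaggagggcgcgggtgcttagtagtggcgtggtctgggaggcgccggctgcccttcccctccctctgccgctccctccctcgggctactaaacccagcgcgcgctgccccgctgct
Tnc: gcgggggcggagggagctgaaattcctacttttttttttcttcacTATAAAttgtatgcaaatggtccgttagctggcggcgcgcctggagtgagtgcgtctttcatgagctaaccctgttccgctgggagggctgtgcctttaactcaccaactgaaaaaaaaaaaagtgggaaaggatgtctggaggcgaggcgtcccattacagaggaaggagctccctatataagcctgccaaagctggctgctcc
Postn had a TATA box that began 26 bases before the start. Thbs2 had a TATA box on the opposite strand 126 bases before the start and CCAAT boxes at 186 and 144 bases. Tnc had an exact match to TATAAA at 205 bases. Its window also holds tatataag much nearer the start, which differs from the letters searched and so stays in lower case. The Tgfbi window held none of the 4 motifs. A TATA box was in 12.4% of 32817 windows of this length, a CCAAT box in 33.8%, a TEAD site in 12.6% and an AP-1 site in 6.75%. None of the 4 motifs was in all 3 windows of Postn, Thbs2 and Tgfbi, and the other Postn window held none of them. Vcan, with a range of 1.53 log2 units beside 1.52 for Postn, is not shown. Its window held a CCAAT box on the opposite strand 103 bases before the start.

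**Figure D2:**
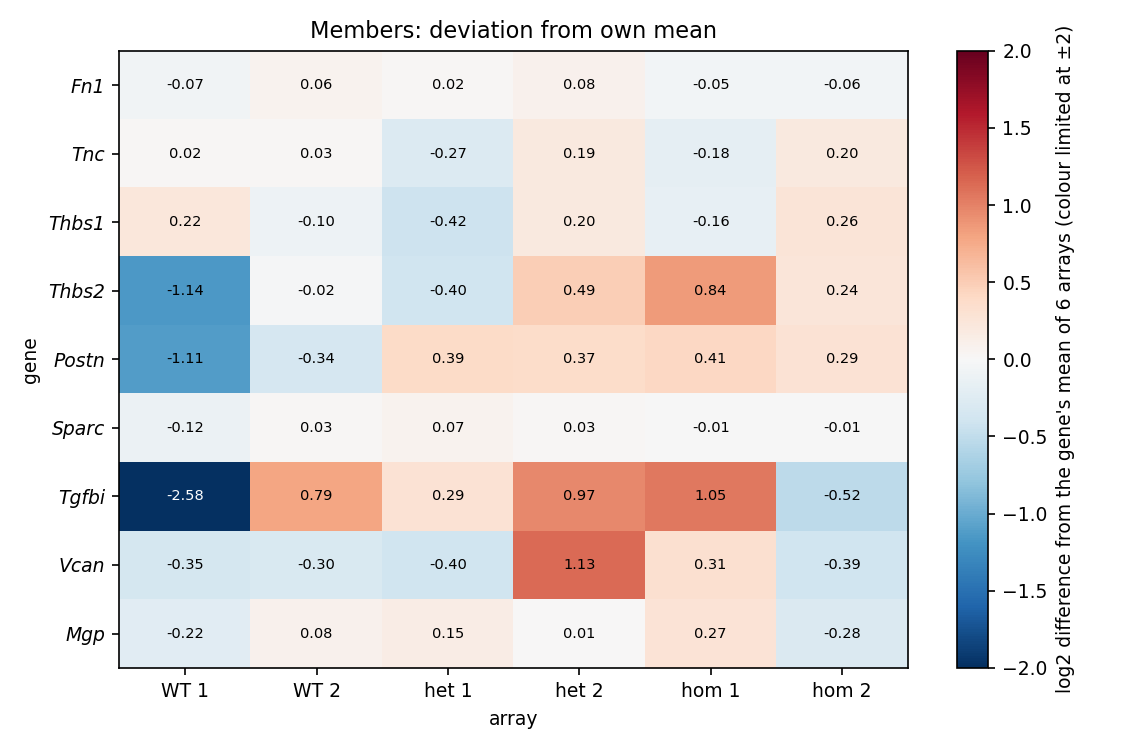
Log2 difference of each member from its own mean of the 6 arrays, by array, with each value printed and colour limited at 2 log2 units. Wild type 1 is the lowest array for Thbs2, Postn and Tgfbi, with deviations of -1.14, -1.11 and -2.58, and heterozygote 2 the highest for Vcan at 1.13.

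Versican (Vcan), a large proteoglycan that binds hyaluronan in loose mesenchyme, was high in 1 culture. It lay at 9.01 and 9.05 in the wild type, 8.96 and 10.49 in the heterozygotes and 9.67 and 8.96 in the homozygotes. Heterozygote 2 was 2.88-fold above heterozygote 1, a wider gap than that of 99.0% of genes in this genotype, and the other tested Vcan probe sets gave 2.20-fold and 2.12-fold. Homozygotes were at 0.29 relative to wild type (SE 0.52) and at -0.41 relative to heterozygotes (SE 0.52), and neither passed (limma adjusted p = 0.982 and 1). Without heterozygote 2 the latter was 0.36. A further 5 Vcan probe sets were below the intensity limit and were not tested.

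Tenascin-C and thrombospondin 1 had an array order unlike that of Thbs2 and Postn. Tenascin-C (Tnc) is a counter-adhesive glycoprotein of mesenchyme and tendon, and thrombospondin 1 (Thbs1) binds Cd47 and Cd36 and can activate latent TGF-beta. Thbs1 lay at 12.40 and 12.07 in the wild type, 11.75 and 12.38 in the heterozygotes and 12.01 and 12.44 in the homozygotes. Tnc lay at 12.09 and 12.10 in the wild type, 11.80 and 12.26 in the heterozygotes and 11.89 and 12.27 in the homozygotes. Both genes were highest in homozygote 2 and lowest in heterozygote 1, and all genotypes overlapped. On the deposited intensities Thbs1 was highest in wild type 1 (5803 against 5787 in homozygote 2) and Tnc lowest in homozygote 1 (3285 against 3405 in heterozygote 1). Thbs1 differed between homozygotes and wild type by -0.01 (95% interval -0.76 to 0.74) and Tnc by -0.02 (95% interval -0.66 to 0.63), with limma adjusted p = 0.998 and 0.996. These intervals leave room for changes up to 1.67-fold and 1.54-fold upwards, and down to 0.59 and 0.63 of the wild-type level. The second Thbs1 probe set gave -0.02 with the same array order, whereas the second Tnc probe set, which was much dimmer, was at 6.29 in heterozygote 1 and 8.08 in heterozygote 2.

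**Figure D3:**
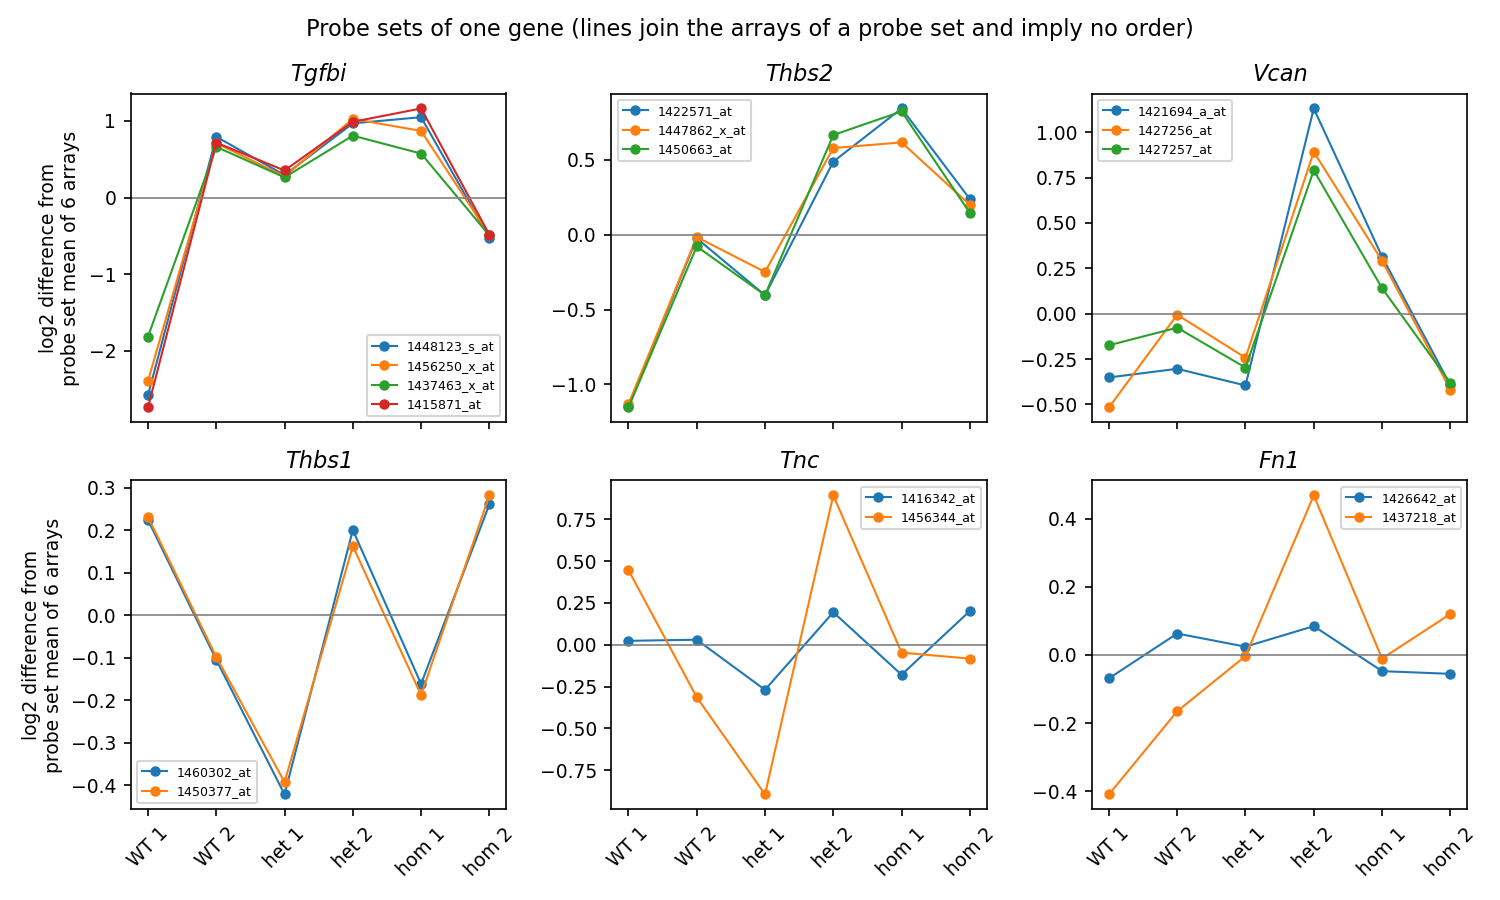
Tested probe sets of 6 members, each as the log2 difference from its own mean of the 6 arrays (vertical axis) on each array (horizontal axis). The 3 Thbs2 and 2 Thbs1 probe sets run close together. The 4 Tgfbi probe sets share their lowest and next lowest array but span from 2.62 to 3.90 log2 units. The 3 Vcan probe sets are all highest in heterozygote 2. The dimmer Tnc and Fn1 probe sets move more than the brighter ones.

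Fibronectin, Sparc and Mgp were the brightest members. On their brightest probe sets Fn1 and Sparc spanned 0.15 and 0.20 log2 units, while their second probe sets spanned 0.88 and 0.75 and Mgp 0.56. Fibronectin (Fn1) is the main adhesive ligand of fibroblasts, Sparc is a collagen-binding glycoprotein, and Mgp, the matrix Gla protein, inhibits calcification. Fn1 lay at 13.18 and 13.31 in the wild type, 13.28 and 13.34 in heterozygotes, and 13.20 in each homozygote. Only 0.853% of genes had a smaller range over the arrays. Homozygotes differed from wild type by -0.05 (SE 0.21, 95% interval -0.55 to 0.46) and from heterozygotes by -0.11 (SE 0.21), and neither passed (limma adjusted p = 0.990 and 1). The second Fn1 probe set was dimmer, at 7.67 and 7.92 in the wild type, 8.08 and 8.55 in the heterozygotes and 8.07 and 8.20 in the homozygotes. Its wild-type arrays lay below the other 4, with heterozygotes at 0.52 (SE 0.26, limma adjusted p = 0.838) and homozygotes at 0.34 (SE 0.26, limma adjusted p = 0.973) relative to wild type.

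Sparc lay at 13.66 and 13.81 in the wild type, 13.86 and 13.81 in heterozygotes, and 13.77 in each homozygote. Homozygotes were at 0.04 relative to wild type (SE 0.21, 95% interval -0.46 to 0.55), a difference that turned to -0.05 with median centring. The second Sparc probe set was at 12.32 and 12.75 in the wild type, 13.00 and 13.06 in the heterozygotes and 12.76 and 12.79 in the homozygotes. Its wild-type arrays lay below all heterozygote and homozygote arrays, though wild type 2 was close to homozygote 1 (12.753 against 12.756). Relative to wild type, heterozygotes were at 0.50 (SE 0.24, limma adjusted p = 0.838) and homozygotes at 0.24 (SE 0.24, limma adjusted p = 0.973). Mgp lay at 12.85 and 13.16 in the wild type, 13.22 and 13.08 in the heterozygotes and 13.35 and 12.79 in the homozygotes, and all genotypes overlapped. The homozygote cultures differed 1.47-fold in Mgp, a wider gap than in 74.6% of genes. Homozygotes differed from wild type by 0.06 (95% interval -0.60 to 0.73) in Mgp, and by -0.07 with median centring.

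The deposited Sparc intensity was between 80.3% and 90.3% of the highest intensity on its array, and that of Fn1 between 54.9% and 63.6%. Quantile normalization sets a value by its rank on the array, and few probe sets rank above these. Saturation was not tested. The deposited intensities themselves differed at most 1.09-fold between arrays for Sparc, 1.23-fold for Fn1 and 1.35-fold for Mgp.

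**Figure D4:**
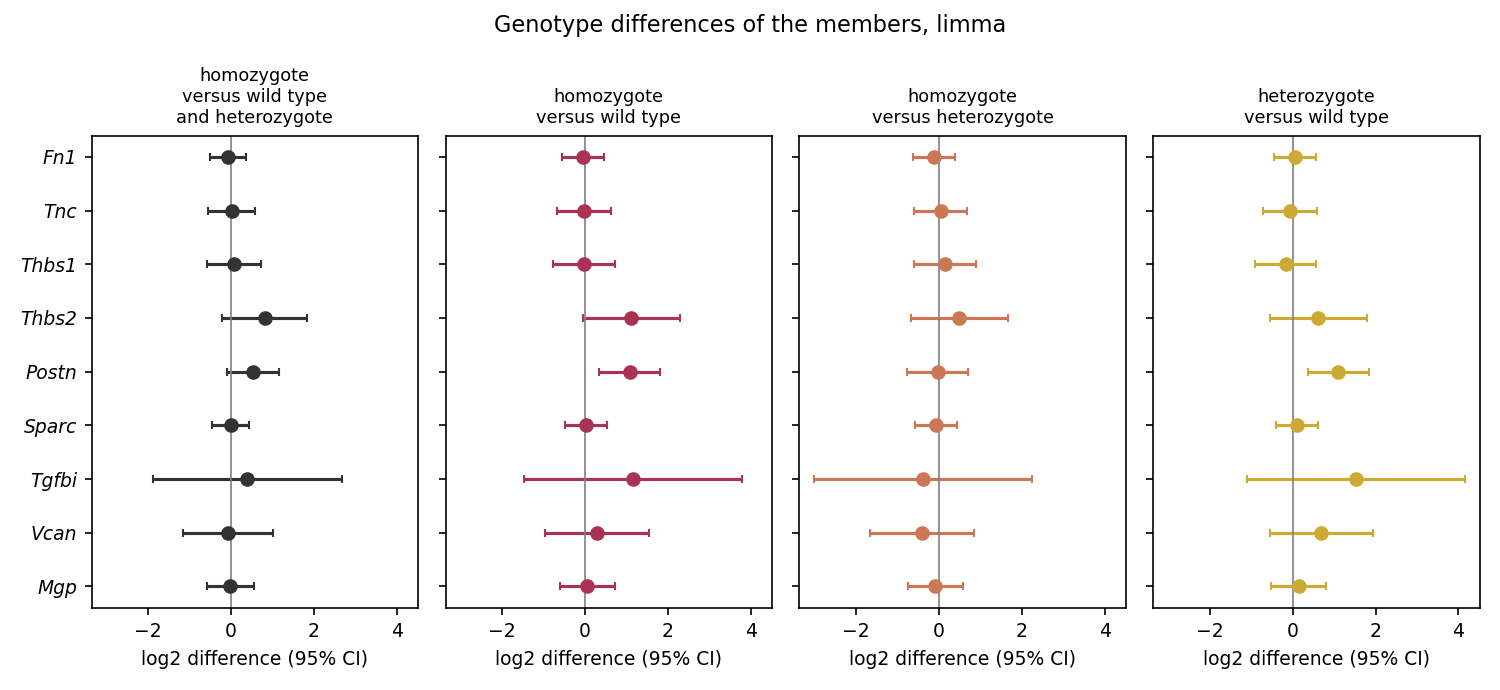
Log2 difference of each member in the 4 comparisons (horizontal axis), with the 95% interval of the limma fit as bars. The intervals of Postn against wild type exclude 0 before adjustment (0.35 to 1.81 in homozygotes, 0.38 to 1.83 in heterozygotes), and those of Tgfbi are the widest.

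Against wild type, homozygotes had 6 members higher and 3 lower with a median of 0.06, beside -0.02 over all genes. Both homozygote arrays lay above both wild-type arrays in 2 of 9 members (Thbs2 and Postn), where 12.5% of all genes did so. Heterozygotes had 7 members higher and 2 lower than wild type with a median of 0.15 (-0.08 with median centring), beside 0.00 over all genes, and the arrays were separated upwards in 1 member (Postn), where 17.6% of all genes were. These counts use the brightest probe sets. The second Fn1 and Sparc probe sets were separated upwards from wild type in homozygotes and in heterozygotes. Homozygotes had 3 members higher and 6 lower than heterozygotes with a median of -0.06, beside -0.01 over all genes. Both homozygote arrays lay below both heterozygote arrays in 2 members (Fn1 at -0.11 and Sparc at -0.06), where 12.4% of all genes did so. With median centring the Sparc difference was 0.03. On the deposited scale Fn1 overlapped there, with 9604 in homozygote 2 above 9537 in heterozygote 1. In each of these comparisons limma called 0 member probe sets and 0 of all 22519. An unadjusted p under 0.05 was reached by Postn in the comparisons with wild type and by 0 members between homozygotes and heterozygotes, where 2.17% of all probe sets reached it.

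After quantile normalization wild type 1 was the lowest array for 5 of the 9 members, while 26.6% of all genes were lowest there, and heterozygote 1 was the lowest for 3. On the deposited intensities Fn1 and Sparc were lowest in homozygote 1 instead, at 8739 and 13495. Wild type 1 was also the lowest array for 12 of 23 tested matricellular relatives and 11 of 18 assembly partners. The fibroblast markers were low and the smooth muscle markers high in wild type 1, as given above.

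By the smallest root mean square difference from the centred levels over the 6 arrays, the genes most like Tgfbi were Dchs1 (0.21 log2 units), Steap4 (0.32) and Agtr2 (0.34). Those most like Thbs2 were Crabp1 (0.18), Isoc1 (0.23) and Stard9 (0.24), and those most like Vcan were Car6 (0.15), Ftx (0.20) and Chsy1 (0.22). Crabp1, a retinoic acid binding protein, spanned 2.20 log2 units and Chsy1, an enzyme of chondroitin sulfate synthesis, 1.09.

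Receptors of these ligands did not pass the test either. Of 24 receptors 22 were tested, and limma called 0 in each of the 4 comparisons. In the stated comparison 10 were higher and 12 lower in homozygotes, with a median of -0.03. Wild type 1, where Postn, Thbs2 and Tgfbi were lowest, was the highest array for 6 of the 22 receptors, near the 24.4% of all genes, and the lowest for 9. Itga5 and Cd44 were among the 6. Itga5, a subunit of the classical fibronectin receptor, was at 9.45 and 8.03 in the wild type, 8.02 and 8.45 in the heterozygotes and 7.80 and 8.08 in the homozygotes. Cd44, the hyaluronan receptor, was at 12.58 and 11.44 in the wild type, 10.70 and 11.50 in the heterozygotes and 11.29 and 11.42 in the homozygotes. Itgav and Itgb1, the shared integrin subunits, were also highest in wild type 1, by 0.44 and 0.59 over their means. Homozygotes were at -0.80 relative to wild type for Itga5 (SE 0.47) and at -0.65 for Cd44 (SE 0.44), with limma adjusted p = 0.973 for each.

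The remaining receptors moved in other ways. Cd47, a thrombospondin receptor, and Lrp1, which clears thrombospondins from the cell surface, were lowest in wild type 1, by -0.71 and -0.70 relative to their means. Itgb5 was likewise lowest there, at -0.49. Cd36, a thrombospondin and lipid receptor that macrophages also express, was at 8.22 in homozygote 1 and between 4.81 and 5.70 on the other arrays. Its difference of 1.52 in the stated comparison (SE 0.73, limma adjusted p = 1) rests on homozygote 1, where the macrophage markers were also highest. Itgb3 was at 0.26, Itga4 at 0.32, Itga8 at 0.25, Itga9 at 0.03 and Sdc4 at -0.02 in that comparison, and a second Itga9 probe set gave -0.56.

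**Figure D5:**
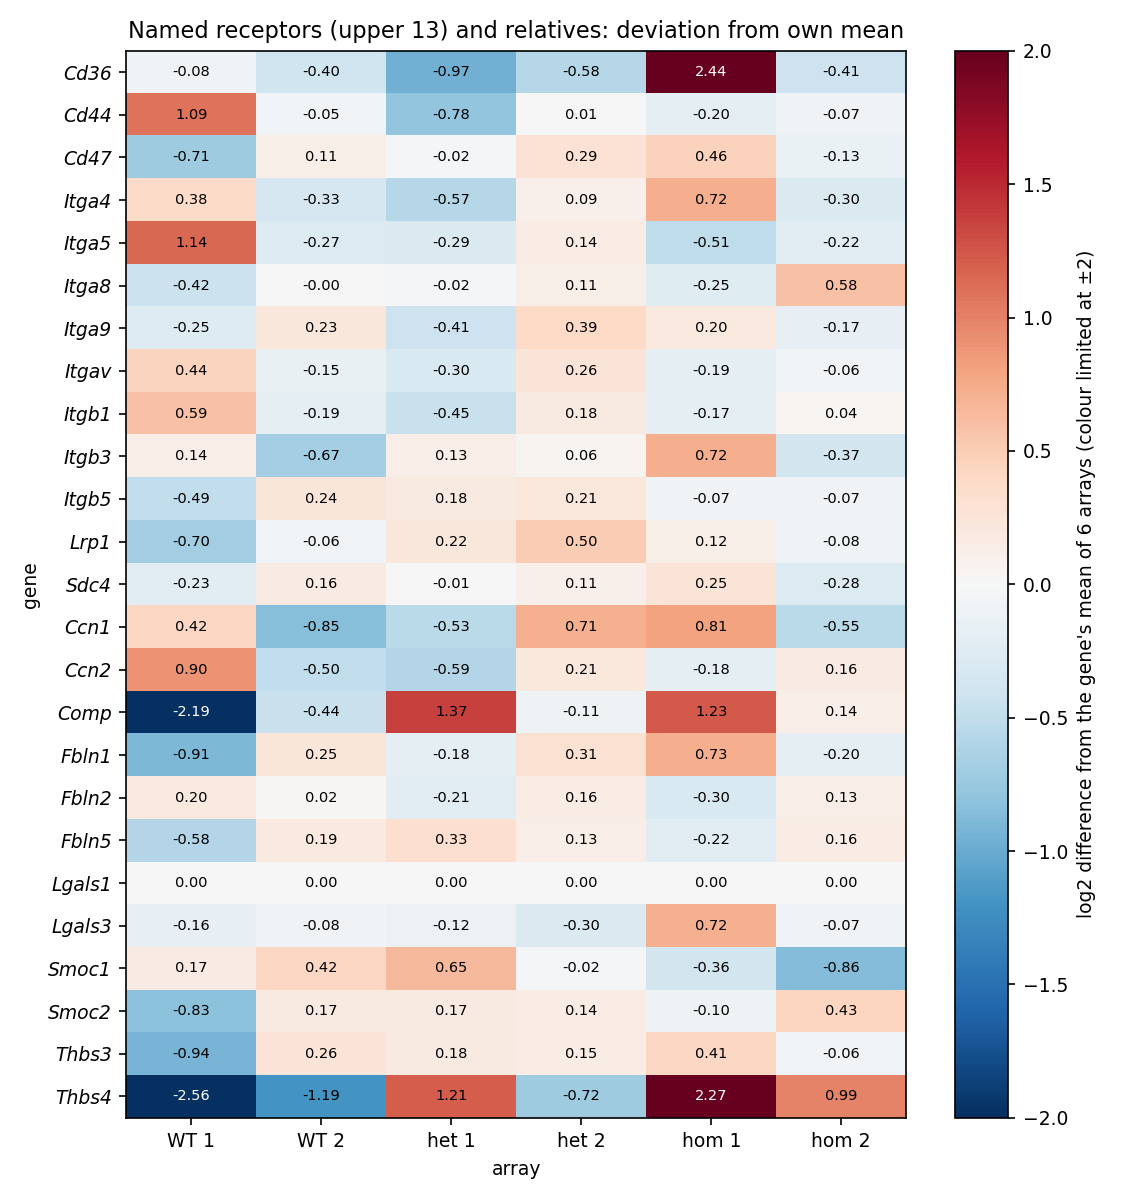
Log2 difference from the gene's own mean of the 6 arrays for 13 receptors (upper rows) and 12 tested matricellular relatives (lower rows), by array, with colour limited at 2 log2 units. Itga5 and Cd44 stand at 1.14 and 1.09 in wild type 1, and Thbs4 and Comp at -2.56 and -2.19.

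Among matricellular relatives, 23 of 33 were tested and limma called 0 in each comparison. In the stated comparison 14 were higher and 8 lower in homozygotes, with a median of 0.06. Of the 23, 1 gene was separated upwards and 1 downwards, where 3.16% and 3.61% of all genes were. Lgals1, the brightest, had a difference of 0.00 set by the normalization. Thbs4, a thrombospondin of tendon and muscle, was at 2.39 and 3.76 in the wild type, 6.16 and 4.23 in the heterozygotes and 7.22 and 5.94 in the homozygotes. The wild-type arrays and heterozygote 2 lie below the lowest mean level tested (4.57), so no size of the difference is given. Comp, the cartilage thrombospondin, exceeded wild type by 2.00 in homozygotes and 1.95 in heterozygotes (SE 0.74 for each, limma adjusted p = 0.973 and 0.838). It lay at 4.31 and 6.06 in the wild type, 7.87 and 6.39 in the heterozygotes and 7.73 and 6.63 in the homozygotes. Wild type 1 was thus also below 4.57, so the sizes of these Comp differences are uncertain and rest in part on that array. Thbs3 differed from wild type by 0.51 in homozygotes.

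Smoc1, a calcium-binding relative of Sparc, was the relative whose homozygote arrays lay below the other 4. It lay at 5.97 and 6.22 in the wild type, 6.45 and 5.78 in the heterozygotes and 5.44 and 4.94 in the homozygotes, with a difference of -0.92 (SE 0.28, limma adjusted p = 1). The galactose-binding lectin Lgals3 was the relative whose homozygote arrays lay above the others, at 12.95 and 12.16 against 11.94 to 12.15, with a difference of 0.49 (SE 0.27, limma adjusted p = 1), and macrophages express it strongly. Homozygote 2 lay barely above wild type 2 in Lgals3 (12.161 against 12.154), so the difference rests mainly on homozygote 1. The CCN proteins Ccn1 and Ccn2 were at 0.20 (SE 0.57) and -0.01 (SE 0.44). Fbln1 was at 0.39, Fbln2 at -0.13, Fbln5 at -0.05 and Smoc2 at 0.25. Sparcl1, Tnxb and Ibsp lay below the intensity limit and were not tested. Sparcl1, the closest relative of Sparc, was at 1.48 and 1.81 in the wild type, 3.87 and 5.30 in the heterozygotes and 6.34 and 4.70 in the homozygotes.

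Genes that assemble or process these proteins gave the same count of calls. Of 20 such genes 18 were tested, among them collagens, lysyl oxidase and matrix proteases. In the stated comparison 12 were higher and 6 lower, with a median of 0.05 and 0 called. Against heterozygotes 3 were higher and 15 lower in homozygotes, where 47.0% of all genes were higher, with a median of -0.10 and 0 called. Against wild type 13 were higher and 5 lower in homozygotes and likewise in heterozygotes, with medians of 0.24 and 0.33 and 0 called. Both heterozygote arrays lay above both wild-type arrays in 9 of the 18, as they did in Postn, where 17.6% of all genes did so. The same held for 8 of the 10 fibroblast markers, but Col1a1, Col1a2 and Col3a1 are in both lists and in both counts. The part of fibroblast content in these values was not tested.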

How the data were processed

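The authors deposited 1 linear intensity per probe set for each of 6 arrays. Per the labels' protocols, biotin-labelled cRNA was made from 2 µg of total RNA by the Affymetrix procedure. Which software summarised and scaled the probes is not stated there.

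Values were converted to log2(intensity + 1.78), the pseudocount being the 10th percentile of all intensities. Folds understate changes of dim genes. Because array medians differed by up to 0.29 on the log2 scale, more than the 0.1 allowed, arrays were quantile normalized. The 64 control probe sets were dropped, and the upper 50% of the other 45037 by mean log2 level were tested (22519, lowest mean 4.57). Names came from the platform annotation, and old symbols were replaced by way of the Entrez identifier from a GRCm38.p6 table. Of the probe sets 34945 had 1 symbol, 932 several and 9160 none, and only those with 1 symbol named a gene.

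Genotype means were compared with limma 3.58.1 under R 4.3.3, with moderated variances and Benjamini-Hochberg adjustment at 0.05. SE and intervals come from this fit, with 3 residual and 3.28 prior degrees of freedom. On simulated data, a 4-fold change in homozygotes was recovered for 52% of changed probe sets in the stated comparison, and a 2-fold change for 2%. Against wild type and against heterozygotes a 4-fold change was recovered for 42% and 46%, and a 2-fold change for 0%. The simulated noise was independent between probe sets, so it lacks deviations that many genes of a culture share, and recovery in the real arrays may differ. All members, 13 receptors and 15 relatives were named whatever they did. Genes of like pattern were the nearest 3 for the 3 members with the widest range. The members and lists were chosen with earlier results of these data known. Alternatives covered normalization, filter, pseudocount, replicate block, embryo sex (Xist minus the mean of Eif2s3y, Uty and Kdm5d), the arrays in the fit and the probe sets of a gene.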

Additional observations from a re-analysis of the deposited data

How the results depend on the processing

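Limma called 0 member probe sets in all 4 comparisons under every alternative run. In Postn and Thbs2, homozygotes (hom) and heterozygotes (het) stayed above wild type (WT) under all alternatives. The filter, the replicate block and fitting only the genotypes compared leave the genotype means unchanged, so they could not turn a direction. With 1 array left out, hom and het exceeded WT by 0.71 to 1.46 and 0.73 to 1.48 in Postn. In Thbs2 they did so by 0.57 to 1.67 and 0.07 to 1.18. The replicate numbers did not pair the arrays (correlations of deviations -0.36, -0.14 and -0.14), and with the replicate block 0 probe sets were called in each comparison. Both replicate numbers occur in each genotype, so the block could not move the Postn difference of 1.08 between homozygotes and wild type.

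Over all probe sets, the covariate for embryo sex gave 1 call between heterozygotes and wild type, and fitting only the genotypes compared gave 2 between homozygotes and heterozygotes. With 1 array left out the calls were 0 to 2 in homozygotes against the others and against heterozygotes, and 0 to 1 in heterozygotes against wild type. The calls with an array left out came without wild type 1 or wild type 2, and included the Y-linked gene Eif2s3y each time. The member median became -0.085 in het against WT with median centring, and with the covariate for embryo sex -0.19 in hom against the others, -0.59 against het and 0.47 in het against WT. With 1 array left out it ran from -0.043 to 0.27 in hom against the others and from -0.014 to 0.35 against WT.

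The slope of the covariate for embryo sex rests mainly on the gap between the wild-type arrays, since sex by expression differed less within the other genotypes, so its values carry the deviation of wild type 1 and are no test of sex. With it the sign turned in hom against the others for Thbs2 (-0.26), Postn (-0.17) and Tgfbi (-2.84), against WT for Thbs1 (0.20), Tnc (0.021), Sparc (-0.036), Tgfbi (-0.66) and Mgp (-0.14), and against het for Thbs2 (-1.04). Without normalization it turned in hom against the others for Tnc (-0.10) and Thbs1 (-0.0075), against WT for Sparc (-0.013) and Mgp (-0.033), and against het for Tnc (-0.028). With the mean of all probe sets it turned for Fn1 (0.0025) and Tnc (-0.041) in hom against the others, for Fn1 (0.15) and Sparc (-0.088) against WT, and for Tnc (-0.0076) against het. Median centring turned Tnc (-0.056) in hom against the others, Sparc (-0.054) and Mgp (-0.074) against WT, Postn (0.047), Sparc (0.031) and Mgp (0.023) against het, and Fn1 (-0.15), Sparc (-0.085) and Mgp (-0.10) in het against WT. Without normalization the median of all probe sets itself stood at -0.11 in hom against het and at 0.11 in het against WT. The cause of the other turns was not tested.

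With 1 array left out, the values that changed sign ran as follows. In hom against the others they ran from -0.17 to 0.21 for Tnc, -0.14 to 0.29 for Thbs1, -0.043 to 0.031 for Sparc, -0.44 to 1.24 for Tgfbi, -0.44 to 0.32 for Vcan and -0.28 to 0.27 for Mgp. In hom against WT they ran from -0.12 to 0.016 for Fn1, -0.205 to 0.17 for Tnc, -0.22 to 0.20 for Thbs1, -0.031 to 0.12 for Sparc, -0.52 to 2.84 for Tgfbi, -0.069 to 0.64 for Vcan and -0.21 to 0.35 for Mgp. In hom against het they ran from -0.19 to 0.28 for Tnc, -0.15 to 0.47 for Thbs1, -0.077 to 0.025 for Postn, -1.17 to 0.41 for Tgfbi, -1.18 to 0.36 for Vcan and -0.35 to 0.20 for Mgp. In het against WT they ran from -0.0063 to 0.12 for Fn1, -0.30 to 0.17 for Tnc, -0.48 to 0.14 for Thbs1, -0.16 to 3.20 for Tgfbi, -0.067 to 1.46 for Vcan and -0.0078 to 0.30 for Mgp. A genotype left with 1 array was assumed to vary like the others. Of the remaining values 669 kept their direction and side of the threshold, or moved by less than the spread. They include values from the filter, the replicate block and the fits of only the genotypes compared, where a direction could not turn.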
